A study of Arabidopsis thaliana with 9 samples.

Results

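AT5G66985 and AT1G33055 are Arabidopsis thaliana genes that encode small proteins and are known as genes induced by low oxygen. They were chosen by name and for their signals on these arrays, each read by 1 probe set, so 2 of the 22810 probe sets of the Affymetrix ATH1 array are described, and their levels by line carry no test. Signals were measured on 9 arrays of 3 lines, iae1, iae2 and B1798, with 3 arrays per line. The iae lines come from work on mutants in which the maize transposon Ac leaves its site more often, and the series asks for the genetic basis of their phenotypes. All lines were in the Ler ecotype at growth stage 1.0, were given 1% sucrose in a growth room with normal atmosphere, and were sampled as crown, hypocotyl, cotyledons and apical meristem bud. The labels give no allele or transgene for any line, leave the treatment unspecified, and call no line a control. B1798, the line without an iae name, was taken as the one that iae1 and iae2 are set against. Plants were pooled, 30 in number, though whether per array is not said. Nothing states that a line's arrays stem from cultures grown apart, and the p-values below therefore reflect array-to-array spread that may be only technical.

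Plants sense oxygen through transcription factors of the ERF family whose N-terminal cysteine is oxidised by plant cysteine oxidases while oxygen is present, which marks them for proteolysis through the N-degron pathway. When oxygen falls, these factors persist and switch on a core set of genes for fermentation, sucrose breakdown, phytoglobin and feedback regulators, along with many small proteins of little known function. AT5G66985 and AT1G33055 belong to that last class. No array here comes from a labelled low-oxygen treatment, so the levels below are those under the labelled normal atmosphere.

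AT5G66985 had signals of 121.1, 98.5 and 89.7 in iae1, of 61.5, 53.0 and 63.5 in iae2, and of 32.2, 19.5 and 26.3 in B1798, on the linear deposited scale. The lines did not overlap, with iae1 highest, iae2 between and B1798 lowest. The mean was 103 ± 16.2 in iae1, 59.3 ± 5.58 in iae2 and 26.0 ± 6.36 in B1798 (SD, n = 3 each), so the mean signal in iae1 was 3.97 times and in iae2 2.28 times that of B1798. On the log2(signal + 16) scale, which understates the change of dim probe sets, the difference was 1.51 ± 0.13 (SE) for iae1 over B1798, 0.85 ± 0.13 for iae2 over B1798 and 0.65 ± 0.13 for iae1 over iae2. The lowest iae1 array lay 26.2 above the highest iae2 array, and the lowest iae2 array 20.8 above the highest B1798 array. These levels are part of how the gene was chosen and are given as a description.

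AT1G33055 was brighter and followed another order. It had signals of 389.6, 421.9 and 394.4 in iae1, of 158.9, 161.4 and 177.8 in iae2, and of 269.6, 265.1 and 268.7 in B1798. Here too the lines did not overlap, but B1798 lay between iae1 at the top and iae2 at the bottom. The mean was 402 ± 17.4 in iae1, 166 ± 10.3 in iae2 and 267.8 ± 2.38 in B1798 (SD, n = 3 each), so the mean signal in iae1 was 1.5 times and in iae2 0.62 times that of B1798. The log2 difference was 0.56 ± 0.07 (SE) for iae1 over B1798, -0.64 ± 0.07 for iae2 over B1798 and 1.20 ± 0.07 for iae1 over iae2. The lowest iae1 array lay 120 above the highest B1798 array, and the lowest B1798 array 87.3 above the highest iae2 array. In these pieces of whole tissue, more transcript per cell and more cells that hold it cannot be told apart.

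**Figure D1:**
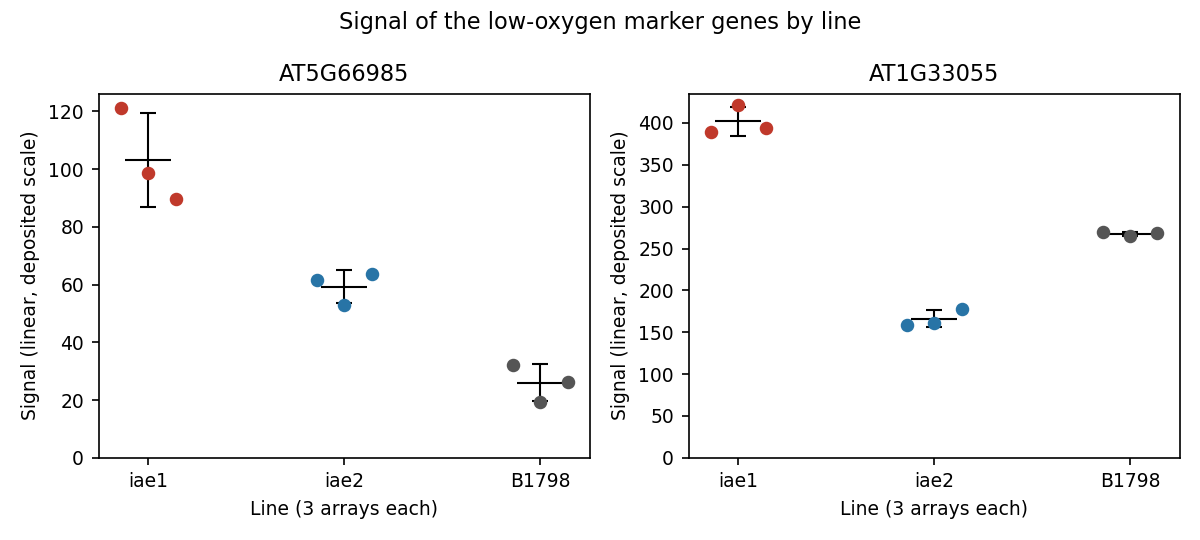
Signal of AT5G66985 and AT1G33055 on the linear deposited scale (vertical axis, from 0) by line (horizontal axis). Points are the 3 arrays of a line and bars the mean ± SD. For AT5G66985 the iae2 arrays, at 53.0 to 63.5, lie above all B1798 arrays, and for AT1G33055 the iae2 arrays, at 158.9 to 177.8, lie below all of them.

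The genes therefore shared their direction in iae1 and opposed each other in iae2. Both were higher on each iae1 array than on each array of the other lines. On each iae2 array AT5G66985 was higher, and AT1G33055 lower, than on each B1798 array. The comparisons of iae1 and of iae2 with B1798 use the same B1798 arrays. Arrays without overlap were common in the whole table: 13% of tested probe sets were higher in iae1 and 17.6% higher and 15.8% lower in iae2 without overlap with B1798, 18.1% were higher in iae1 than in iae2 without overlap, and nothing is read from the members' place among them. A full order without overlap was less common, with iae1 over iae2 over B1798, as for AT5G66985, in 0.576% of 14404 tested probe sets (83), and iae1 over B1798 over iae2, as for AT1G33055, in 1.5% (216).

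The size of the changes was set against all tested probe sets as a description. For AT5G66985, the difference of iae1 over B1798 stood at rank 7 from the top of 14404, and 0.0764% of tested probe sets changed at least as much in either direction. In iae2 over B1798 it ranked 206 from the top, and in iae1 over iae2 245, where 2.06% and 4.14% changed at least as much in either direction. For AT1G33055, the difference of iae1 over iae2 ranked 35 from the top, that of iae1 over B1798 210 from the top, and that of iae2 over B1798 206 from the bottom. A change at least as large in either direction was found in 0.791%, 2.35% and 4.35% of tested probe sets, in that order. Among the 500 tested probe sets closest to each in brightness, the median size of the log2 change in iae1 over B1798 was 0.12 around AT5G66985 and 0.13 around AT1G33055.

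**Figure D2:**
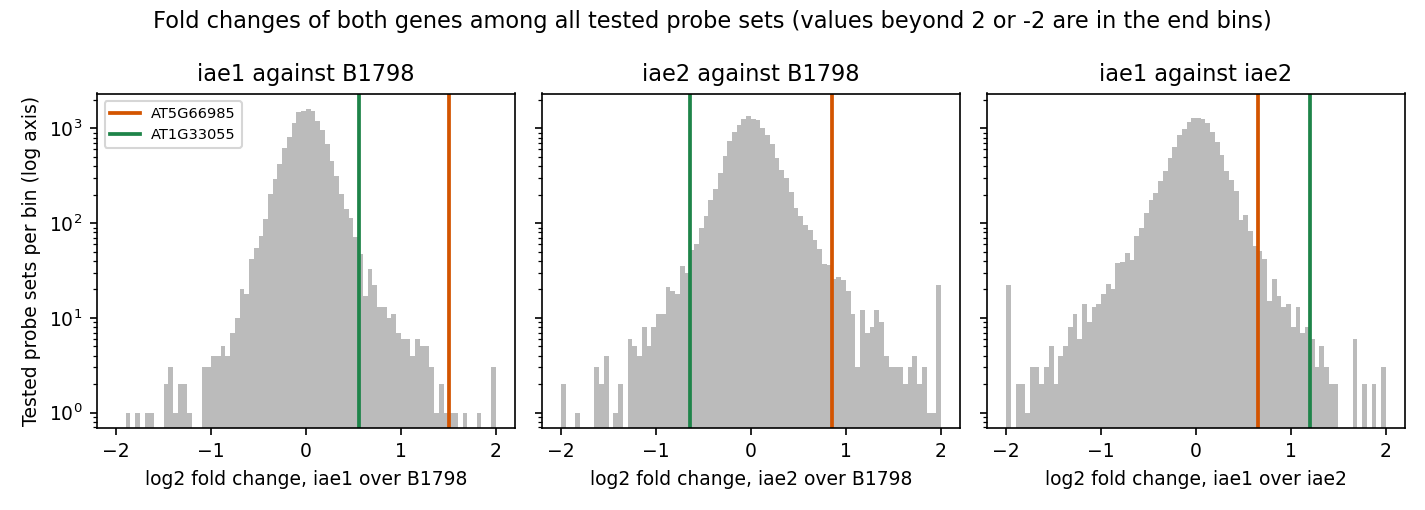
Number of tested probe sets (vertical axis, log scale) by log2 fold change (horizontal axis) in iae1 over B1798, iae2 over B1798 and iae1 over iae2, with lines at the values of AT5G66985 and AT1G33055. In iae1 over B1798 the lines stand at 1.51 and 0.56, both right of 0, and in iae2 over B1798 at 0.85 and -0.64, on opposite sides of 0.

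Within lines the genes differed in steadiness. AT5G66985, the dimmer, had a within-line SD of 0.18 on the log2 scale, against a median of 0.15 among the 500 probe sets of like brightness. AT1G33055 had 0.06, against 0.10. The signal of AT5G66985 lay at percentile 71.0 to 77.3 of its array in iae1, 58.4 to 63.4 in iae2 and 35.8 to 47.7 in B1798, and 8 of 9 arrays reached the 40th percentile that a probe set needed on at least 3 arrays to be tested. AT1G33055 lay at percentile 92.4 to 92.9 in iae1, 81.5 to 83.5 in iae2 and 88.7 to 89.0 in B1798. The dim B1798 values thus bear most on the fold changes of AT5G66985: they were 1.85 and 1.10 for iae1 and iae2 over B1798 with log2(signal + 4), and 0.89 and 0.46 with log2(signal + 64).

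Array quality moved with line in part. The GAPDH 3'/5' signal ratio, a sign of RNA integrity, was 2.32 to 2.48 in iae1, 1.73 to 1.98 in iae2 and 2.27 to 3.11 in B1798, and the 25S rRNA signal was 4415 to 5147 in iae1, 1666 to 3528 in iae2 and 3246 to 4068 in B1798. With the GAPDH ratio as a covariate, AT5G66985 had a log2 difference of 1.45 ± 0.15 (SE) in iae1 and 0.66 ± 0.27 in iae2 over B1798, and AT1G33055 0.58 ± 0.09 and -0.58 ± 0.16. The 25S signal was higher on each iae1 array than elsewhere, and its part in the results was not tested. Of 14 tissue markers 5 had a named probe set. The leaf gene RCA, of Rubisco activase, had signals of 2519 to 3205 over the 9 arrays, and PYK10, a beta-glucosidase gene of root and hypocotyl, 3211 to 4395. PYK10 was lower on each iae2 array (3211 to 3581) than on each array of iae1 (3848 to 4092) and B1798 (3926 to 4395), as was AT1G33055, with a log2 fold change of -0.33 in iae2 over B1798 (adjusted p = 0.00898), and its part in the level of AT1G33055 was not tested. The root hair gene EXPA7 went the other way from PYK10, with 30.2, 47.6 and 38.4 in iae2, above each B1798 array at 25.6, 27.6 and 29.9, and 36.3, 35.6 and 27.6 in iae1. Its log2 fold change of 0.31 in iae2 over B1798 did not pass (adjusted p = 0.135). The meristem gene LAS had 28.9 to 42.6, and the stem cell gene CLV3 2.2 to 8.3, below the filter on all arrays.

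The other genes of the low-oxygen response were read from a list of 64 loci. A named probe set existed for 23 of them, and 18 were tested. The 41 without one include ADH1, PDC1, SUS1, SUS4, PGB1, HRE1, HRE2, PCO1, PCO2 and LBD41, so the central enzymes and regulators of the pathway were not analysed here. A probe set counted as named only where the probe annotation gave it 1 gene, and 8730 had none. Of the 41, 2 were hypoxia-induced proteins of little known function, the class with 15 of the 18 tested genes. The rest were 16 loci of oxygen sensing and transcription, 8 of fermentation and sugar breakdown and 15 others with a known product. A gene was called at an adjusted p below 0.05 in limma, with the Benjamini-Hochberg adjustment over all 14404 probe sets. In iae1 over B1798, 7 of 18 list genes were called, 6 higher and 1 lower, where 7.21% of all tested probe sets were called, 3.8% higher and 3.42% lower. In iae2 over B1798, 9 of 18 were called, 6 higher and 3 lower, beside 17.8% of all, 9.77% higher and 7.99% lower. One of these higher calls, AT4G33560, reached the filter on no B1798 array and so could enter the test only through the iae lines. In iae1 over iae2, 9 of 18 were called, 6 higher and 3 lower, beside 19.6% of all, 9.44% higher and 10.2% lower. With array medians set equal, the split of all calls between higher and lower turned, to 397 and 599 in iae1 over B1798, against 547 and 492 as deposited, and to 1101 and 1506 in iae2 over B1798, against 1407 and 1151, while the list had 5 higher and 1 lower in iae1 and 5 higher and 4 lower in iae2. In the same order of comparisons, the 18 list genes had a median log2 fold change of 0.15, 0.14 and 0.10, beside 0.01, 0.00 and 0.00 for all tested probe sets. The list was assembled with earlier results of these data known, and no test of the list as a whole was made. The iae1 count was 4 on removing an iae1 array, B1798 replicate 2 or B1798 replicate 3, and the iae2 count to 5 without iae2 replicate 1, iae2 replicate 3 or B1798 replicate 2. With the GAPDH ratio as a covariate the counts were 3, 2 and 5, beside 694, 393 and 1102 calls among 14404 probe sets. The calls that held were those of AT4G10270, AT1G19530 and AT3G29970 in iae1 over B1798, of AT3G03270 and AT3G29970 in iae2 over B1798, and of CML38, AT3G03270, AT4G10270, AT1G19530 and AT3G10020 in iae1 over iae2. Without the filter on dim probe sets, CML38, AT3G10020 and AT5G42200 did not pass in iae1 over B1798, AT4G33560, AT1G74940 and AT4G17670 did not pass in iae2 over B1798, and PDC2 did not pass in iae1 over iae2 (adjusted p = 0.0587 to 0.0918).

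**Figure D3:**
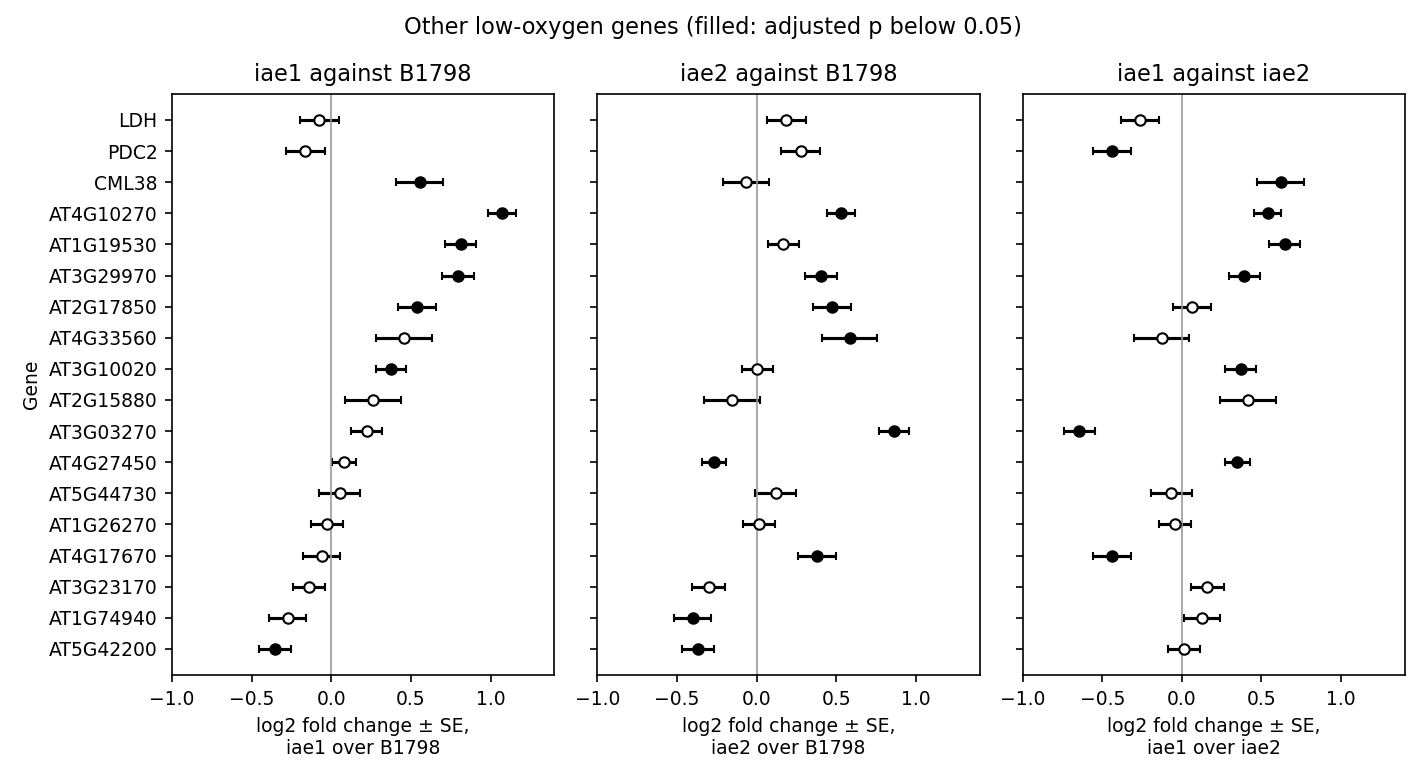
log2 fold change ± SE (horizontal axis) of the 18 tested low-oxygen genes other than AT5G66985 and AT1G33055 (rows) in iae1 over B1798, iae2 over B1798 and iae1 over iae2. Filled points passed at an adjusted p below 0.05 in limma, which 7, 9 and 9 genes did.

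Among regulators of the oxygen response, the one with a named probe set was HRA1, a trihelix transcription factor gene that restrains the response in Arabidopsis. It stayed below the filter, with signals of 3.8, 2.2 and 11.6 in iae1, of 10.7, 10.9 and 12.5 in iae2, and of 8.8, 10.2 and 12.1 in B1798. HRA1 was therefore not tested.

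Fermentation and sugar breakdown were read by PDC2 and LDH, and neither passed against B1798. PDC2, a pyruvate decarboxylase gene of ethanol fermentation, had signals of 109.4, 147.8 and 154.2 in iae1, of 218.5, 180.1 and 173.4 in iae2, and of 173.3, 150.6 and 139.6 in B1798. It was lower in iae1 than in iae2 (log2 fold change -0.44 ± 0.12 SE, adjusted p = 0.0182). Removing iae1 replicate 1 or iae2 replicate 1 ended that call (adjusted p up to 0.0887), and with the GAPDH ratio as a covariate the PDC2 value was -0.12 ± 0.17 (adjusted p = 0.746). Its log2 fold changes over B1798 were -0.16 in iae1 and 0.28 in iae2 (adjusted p = 0.488 and 0.137). LDH, the lactate dehydrogenase gene, had -0.08 and 0.19 (adjusted p = 0.781 and 0.329).

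CML38, a calmodulin-like calcium sensor known from stress granules of oxygen-starved cells, had signals of 43.3, 47.5 and 50.1 in iae1, of 27.7, 17.2 and 31.1 in iae2, and of 33.7, 24.2 and 23.3 in B1798. Each iae1 array was above each array of the other lines, which overlapped. CML38 rose in iae1 over B1798 by 0.55 ± 0.15 on the log2 scale (SE, adjusted p = 0.032) and was higher in iae1 than in iae2 (0.62, adjusted p = 0.00729). The rise over B1798 did not pass once an iae1 array, B1798 replicate 2 or B1798 replicate 3 was removed (adjusted p at most 0.106). In iae2 over B1798 its value was -0.07 (adjusted p = 0.809).

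The remaining 15 tested list genes were listed as hypoxia-induced proteins of little known function, the class given above for AT5G66985 and AT1G33055. Of these 15, 5 were called higher and 1 lower in iae1 over B1798, and 6 higher and 3 lower in iae2. Among all tested probe sets, 3.8% were called higher and 3.42% lower in iae1, and 9.77% and 7.99% in iae2. AT4G10270, of a wound-responsive protein family, had signals of 166.0, 155.2 and 171.0 in iae1, of 115.3, 98.1 and 111.0 in iae2, and of 69.2, 69.9 and 70.1 in B1798. AT3G29970, of the B12D family of small proteins, had 131.8, 154.0 and 137.8 in iae1, 98.6, 107.9 and 104.3 in iae2, and 63.7, 78.1 and 82.5 in B1798. These 2 of the 18 list genes had the order of AT5G66985 without overlap, found for 0.576% of all tested probe sets, and 0 had the order of AT1G33055.

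AT4G10270 rose by 1.07 ± 0.09 (SE) on the log2 scale in iae1 (adjusted p = 1.59e-06) and by 0.53 ± 0.09 in iae2 over B1798 (adjusted p = 0.000453), and differed by 0.54 between iae1 and iae2 (adjusted p = 0.000401). These calls held when any 1 array was left out, and the iae2 call did not pass with the GAPDH ratio as a covariate, where the value was 0.50 ± 0.18 (SE, adjusted p = 0.2). AT3G29970 rose by 0.80 ± 0.10 in iae1 (adjusted p = 0.000113) and by 0.40 ± 0.10 in iae2 (adjusted p = 0.0098). It differed by 0.39 between iae1 and iae2 (adjusted p = 0.0108), which did not pass on removing iae1 replicate 2 (adjusted p = 0.0594) or with the GAPDH covariate, where the value was 0.15 ± 0.14 (adjusted p = 0.609).

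AT1G19530 had signals of 97.3, 100.7 and 102.3 in iae1, of 62.0, 52.2 and 60.8 in iae2, and of 54.2, 49.0 and 47.2 in B1798. It was higher on each iae1 array than on all others, while iae2 and B1798 overlapped. It rose in iae1 over B1798 by 0.81 ± 0.10 (adjusted p = 7.33e-05) and over iae2 by 0.65 (adjusted p = 0.000209), and its value in iae2 over B1798 was 0.17 (adjusted p = 0.268). AT2G17850, of the rhodanese sulfurtransferase family, had signals of 57.0, 48.9 and 59.4 in iae1, of 57.5, 54.3 and 44.6 in iae2, and of 38.6, 31.0 and 29.6 in B1798, and rose in both iae lines. Its log2 fold change was 0.54 in iae1 (adjusted p = 0.0122), lost without iae1 replicate 3 (adjusted p = 0.056), and 0.47 in iae2 (adjusted p = 0.0115), lost without iae2 replicate 1 (adjusted p = 0.0576). With the GAPDH ratio as a covariate its iae2 value was 0.07.

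AT3G03270, of the universal stress protein family, was highest in iae2, with signals of 96.5, 88.9 and 87.5 in iae1, of 145.4, 147.6 and 160.4 in iae2, and of 69.9, 70.8 and 87.5 in B1798. It rose in iae2 over B1798 by 0.86 ± 0.10 (adjusted p = 1.12e-05) and was lower in iae1 than in iae2 by a log2 fold change of -0.64 (adjusted p = 0.000193). The difference of iae1 over B1798 was 0.22 (adjusted p = 0.193). Within iae2 over B1798, 0.86 was the largest of the 6 called rises of the list.

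Changes were also called in 6 further list genes. AT3G10020 rose in iae1 over B1798 (log2 fold change 0.37, adjusted p = 0.0271), which did not pass on removing an iae1 array, B1798 replicate 2 or B1798 replicate 3, and was higher in iae1 than in iae2 (0.37, adjusted p = 0.0129), lost without iae1 replicate 2 or iae2 replicate 2. With equal array medians it did not pass over B1798 (adjusted p = 0.0679). AT4G27450, read at the highest signals of the list (1224 to 1711), fell in iae2 over B1798 (-0.27, adjusted p = 0.022), which failed without iae2 replicate 1, iae2 replicate 3 or B1798 replicate 2 and with quantile normalization, and was higher in iae1 than in iae2 (0.35, adjusted p = 0.00405). AT4G17670 rose in iae2 over B1798 (0.38, adjusted p = 0.037) and was lower in iae1 than in iae2 (-0.44, adjusted p = 0.0156). The first of these was lost without any 1 of the iae2 arrays, B1798 replicate 2 or B1798 replicate 3 and with equal array medians, and the second without iae1 replicate 1, iae1 replicate 2 or iae2 replicate 3. AT5G42200, a RING-type protein gene, fell in iae1 (-0.35, adjusted p = 0.0473) and iae2 (-0.37, adjusted p = 0.0195) over B1798. Its iae1 call failed on removing each array in turn except iae1 replicate 3 (adjusted p at most 0.186) and with the replicate block (adjusted p = 0.0723), and its iae2 call without iae2 replicate 3, B1798 replicate 2 or B1798 replicate 3. AT1G74940 fell in iae2 (-0.40, adjusted p = 0.0233), lost without iae2 replicate 2, iae2 replicate 3, B1798 replicate 1 or B1798 replicate 2. AT4G33560 rose in iae2 (0.58, adjusted p = 0.0303), but it reached the 40th percentile on 1 iae1, 2 iae2 and 0 B1798 arrays and so entered the test only through lines where it was higher. That call was lost without B1798 replicate 1 or B1798 replicate 3 and with values below 16 set to 16. It was also lost with quantile normalization, array weights or the GAPDH covariate. Without iae1 replicate 2, iae2 replicate 1 or iae2 replicate 2, AT4G33560 fell below the filter and was not tested.

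The 5 tested genes called in no comparison were LDH, AT5G44730, AT2G15880, AT1G26270 and AT3G23170, with log2 fold changes between -0.30 and 0.42. The 5 below the filter had signals of 0.9 to 24.6. Of these, AT4G24110 had 14.3, 22.1 and 21.9 in iae1, 7.8, 3.1 and 12.1 in iae2, and 13.6, 8.6 and 6.1 in B1798, with each iae1 array above all others. AT5G26200 went the other way, with 1, 1 and 0.9 in iae1, 1.2, 1.2 and 7 in iae2, and 2.9, 1.3 and 1.4 in B1798. Each of its iae1 arrays lay below all others. In the rest, the arrays of the lines overlapped. All 5 were too dim to be tested.

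Genes whose pattern was most like that of each member were then ranked, by Pearson's r of log2(signal + 16) over the 9 arrays, among the 7852 other tested probe sets with 1 named gene. The r is a measure of likeness only, because the 9 arrays fall into 3 lines. Nearest to AT5G66985 were AT5G01870 (r = 0.981), AT4G39675 (0.976), 2A6, a dioxygenase-like gene (0.973), AT4G10270 of the low-oxygen list (0.968) and AT3G50790 (0.955). AT4G39675, also dim, had signals of 81, 76.7 and 73.5 in iae1, of 47.7, 41.6 and 58.1 in iae2, and of 19.1, 18.9 and 22.3 in B1798. It reached the 40th percentile on 3 iae1, 3 iae2 and 0 B1798 arrays, and so entered the ranking only through lines where it was higher. AT5G01870 averaged 282 ± 14.8 in iae1, 214 ± 7.62 in iae2 and 128.9 ± 12.7 in B1798 (SD, n = 3 each). Of the other list genes, the most alike were AT1G19530 at place 39 of the ranking (r = 0.896), AT3G29970 at 41 (0.892) and AT2G17850 at 89 (0.855). Others went the opposite way, down to AT5G42200 at place 7690 (r = -0.794), with AT1G74940 at 6700 (-0.463).

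Nearest to AT1G33055 were AT1G12080 (r = 0.989), AT5G56100 (0.987), MSRB9, a methionine sulfoxide reductase gene (0.980), AT3G29240 (0.977) and AT5G48110 (0.975). AT5G56100 had signals of 758.7, 750.6 and 703.3 in iae1, of 324.9, 278.7 and 317.9 in iae2, and of 516.7, 525.9 and 535.9 in B1798. MSRB9 averaged 860 ± 49.6 in iae1, 464 ± 16.8 in iae2 and 656 ± 51.9 in B1798 (SD, n = 3 each), the same order without overlap. The first low-oxygen list gene in this ranking was AT4G27450, at place 159 (r = 0.890). Here too some list genes went the opposite way, down to AT4G17670 at place 7323 (r = -0.776), with PDC2 at 7265 (-0.759). The sets of 5 nearest genes of the members shared no gene.

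**Figure D4:**
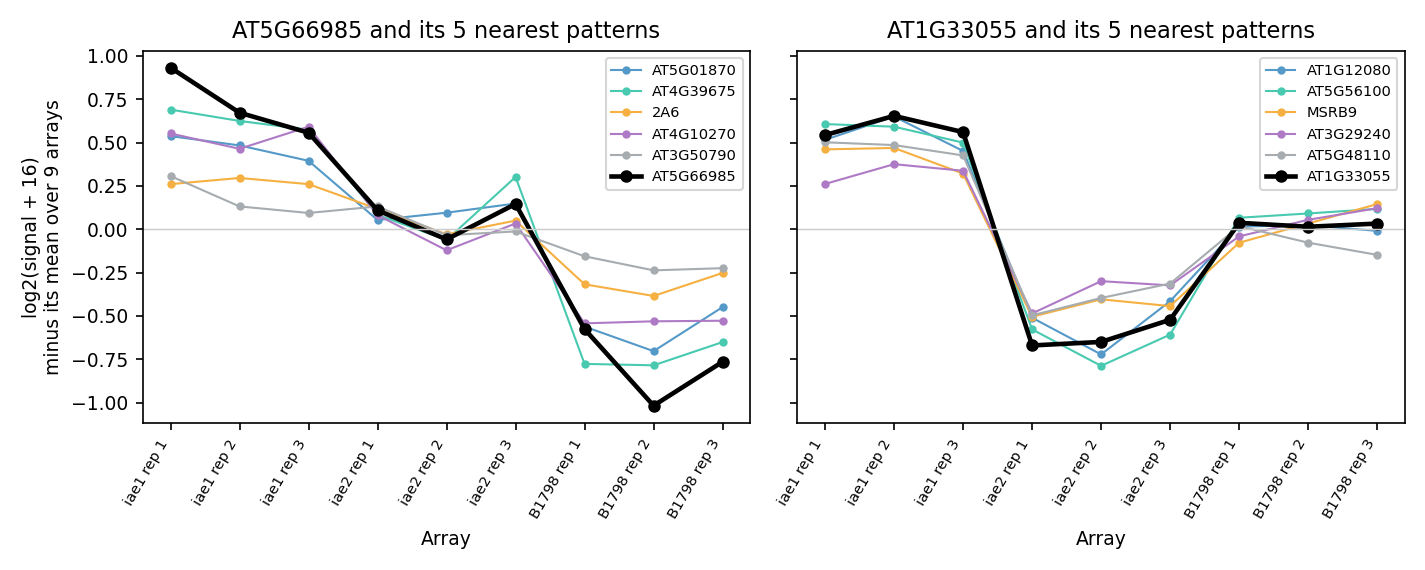
log2(signal + 16) minus its mean over the 9 arrays (vertical axis) on each array (horizontal axis) for AT5G66985, left, and AT1G33055, right, in black, and for the 5 genes with the most similar pattern to each, in colour. Lines between points only guide the eye. Left, the arrays of B1798 lie lowest for each gene, and right, those of iae2 do.

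The genes next to each member in the gene order were read too. Beside AT5G66985, the 3 of 4 neighbouring genes with a named probe set, AT5G66970, AT5G66980 and AT5G67000, stayed below the filter, with mean signals of 7.33, 7.93 and 8.23 in iae1, of 2.93, 6.30 and 8.37 in iae2 and of 5.93, 9.90 and 9.83 in B1798. No shared change was measured there. Beside AT1G33055, the adjacent gene AT1G33050 had signals of 192.5, 194.4 and 191.5 in iae1, of 138.7, 114.5 and 136.6 in iae2, and of 158.3, 148.7 and 144.0 in B1798. Its lines stood in the order of AT1G33055, without overlap, and its changes were smaller. It rose by 0.33 ± 0.09 (SE) on the log2 scale in iae1 over B1798 (adjusted p = 0.0295) and was higher in iae1 than in iae2 by 0.52 (adjusted p = 0.000482), while its value in iae2 over B1798 was -0.19 (adjusted p = 0.146). The call over B1798 ended on removing an iae1 array, B1798 replicate 2 or B1798 replicate 3 (adjusted p at most 0.0901) and with array medians set equal or the GAPDH covariate (adjusted p = 0.0722 and 0.118), and the call over iae2 held without any 1 array. NAC014, on the other side, differed from B1798 by a log2 value of -0.09 in iae1 and -0.15 in iae2 (adjusted p = 0.751 and 0.442), and AT1G33070 stayed below the filter, with signals of 0.6 to 4.3.

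The directions of both members were the same under each setting that could be computed. Leaving out 1 array at a time gave AT5G66985 log2 fold changes of 1.39 to 1.61 in iae1 and 0.74 to 0.96 in iae2 over B1798, and AT1G33055 0.52 to 0.58 and -0.69 to -0.61.

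**Figure D5:**
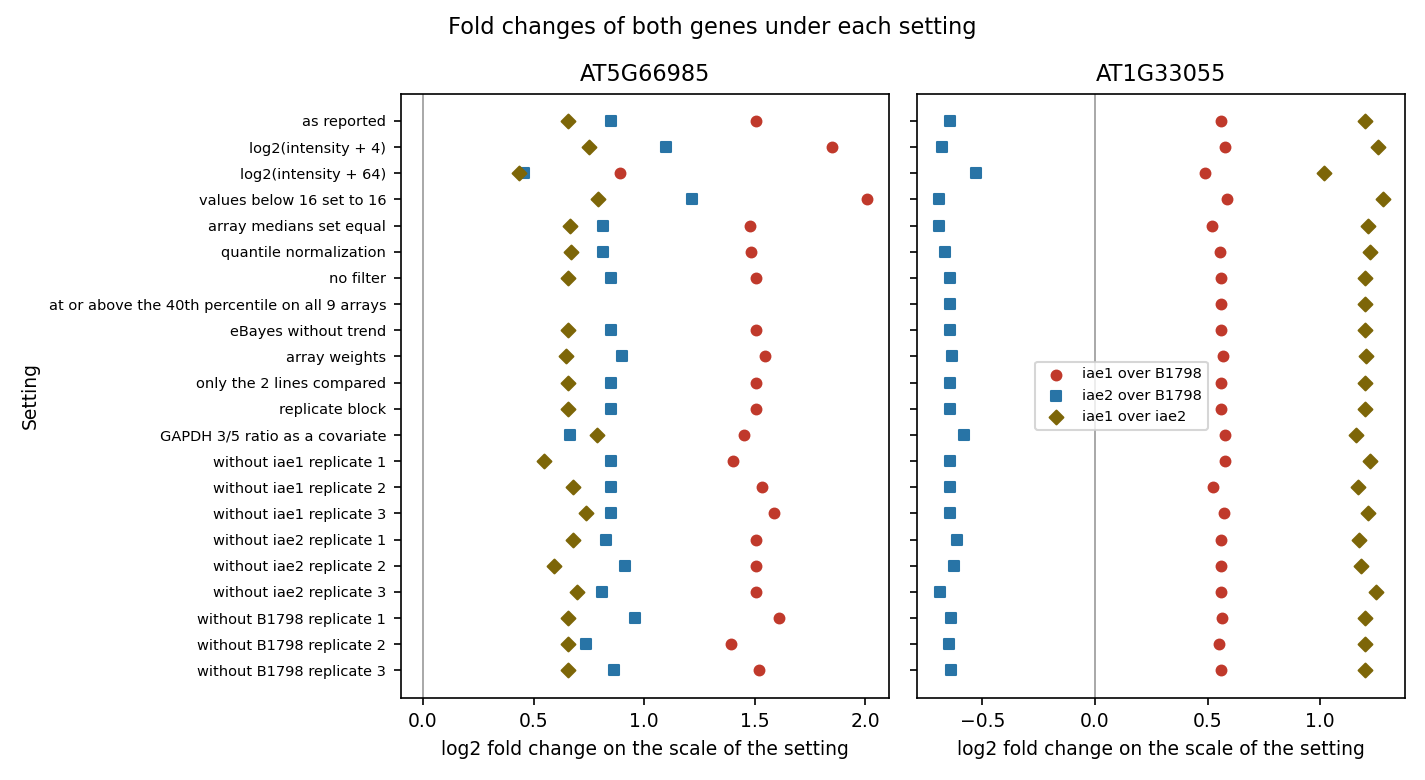
log2 fold change of AT5G66985, left, and AT1G33055, right (horizontal axis, each on the scale of its setting) under each setting (rows) for iae1 over B1798, iae2 over B1798 and iae1 over iae2. AT5G66985 stays right of 0 in each comparison, from 0.46 to 1.22 in iae2 over B1798, and AT1G33055 in iae2 over B1798 stays left of 0, from -0.69 to -0.53.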

How the data were processed

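RNA was primed with oligo-dT and hybridised as biotin-labelled cRNA, per the labels' protocols. The deposited values are intensity signals on a linear scale, with a mean of 100 on each array after trimming 2% at each end. How the authors summarised probes into these signals is not given in the sources used here. Left out were 64 control probe sets. A probe set was tested when it reached the 40th percentile of its array on at least 3 of 9 arrays. log2(signal + 16) was fitted with a mean per line and an intensity trend in limma 3.58.1 (R 4.3.3), with two-sided contrasts. Figures were drawn with matplotlib 3.10.9 in Python 3.11.15. The scripts were tested on simulated data.

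Probe annotation named 13513 probe sets with 1 gene, 503 with several and 8730 with none. Symbols and gene order came from a TAIR10.1 gene table, and no coordinates are given because no build is named. No sequences were used here. The number of arrays limits the precision. The members and lists were chosen with earlier results of these data known. Genes were named by a rule: both members, each list gene called in any comparison, HRA1 and other defining genes where a probe set was named, the 5 nearest patterns and the neighbouring genes. Genes outside it, chosen after their values were seen, were the uncalled list genes, AT4G24110, AT5G26200 and the tissue markers' comparison by line. Alternatives changed the pseudocount, floor, normalization, filter, variance model, weights, lines fitted, block, covariate and arrays.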

Additional observations from a re-analysis of the deposited data

Results flagged for a closer look

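AT1G33055 moved in opposite directions in the iae lines, each iae1 array lying above and each iae2 array below the B1798 arrays. The effects differed by 1.20 on the log2 scale, and this difference was not tested because the gene was chosen for its levels.

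Among the other low-oxygen genes, 9 of 18 tested had effects that differed between iae1 and iae2 by the limma contrast of the lines. The adjusted p-values are given with each gene, and 19.6% of all tested probe sets were called in that contrast. The effect in iae1 minus that in iae2 was positive for AT1G19530 (0.65), CML38 (0.62), AT4G10270 (0.54), AT3G29970 (0.39), AT3G10020 (0.37) and AT4G27450 (0.35). It was negative for AT3G03270 (-0.64), AT4G17670 (-0.44) and PDC2 (-0.44). With the GAPDH ratio as a covariate, 4 of these 9 did not pass, with differences of -0.12 for PDC2, -0.26 for AT4G17670, 0.15 for AT3G29970 and 0.29 for AT4G27450. AT1G33050, next to AT1G33055 in the gene order, had a difference of 0.52.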

How the results depend on the processing

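The log2 fold changes of both members kept their direction under each alternative, and depended in size on the pseudocount. For AT5G66985 over B1798, log2(signal + 4), log2(signal + 64) and a floor of 16 gave 1.85, 0.89 and 2.01 in iae1 and 1.10, 0.46 and 1.22 in iae2, and log2(signal + 64) gave 0.43 for iae1 over iae2. For AT1G33055, log2(signal + 64) gave 0.49, -0.53 and 1.02 in iae1 over B1798, iae2 over B1798 and iae1 over iae2, and the floor 1.28 for the last. Asking for the 40th percentile on all 9 arrays left AT5G66985 out, so it has no value there. With the GAPDH ratio as a covariate the iae2 values over B1798 were 0.66 for AT5G66985 and -0.58 for AT1G33055. List genes called were then 3 in iae1 and 2 in iae2 over B1798 and 5 in iae1 over iae2. All probe sets called were 694, 393 and 1102 in that order, against 1039, 2558 and 2825 without the covariate. Without the filter, 4 and 6 list genes were called in iae1 and iae2 over B1798, and 8 in iae1 over iae2. All probe sets called were then 778, 2176 and 2366 of 22746, in the same order. Leaving out 1 array at a time, list genes called numbered 4 to 6, 5 to 10 and 6 to 9 in the 3 comparisons, all probe sets called 617 to 1027, 1873 to 2521 and 1951 to 2939, with the iae1 count lowest without any 1 of the iae1 arrays or B1798 replicate 2 (683, 687, 627 and 617), and the iae1 over iae2 values were 0.55 to 0.74 for AT5G66985 and 1.17 to 1.25 for AT1G33055. Of 25 calls of list genes, 11 held without any 1 array and 9 under each alternative that gave a value. CML38, among these 9 in iae1 over iae2, had no value with the 40th percentile asked for on all 9 arrays. The same tally is not given for all tested probe sets, so it is not read as a trait of the list.

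Among list genes, the signs that turned were those of values that did not pass. AT3G10020 in iae2 over B1798 had -0.0492 with equal medians and -0.34 with the GAPDH covariate, which also gave PDC2 -0.18 and AT1G19530 -0.00823 in iae2 over B1798 and AT4G33560 0.00712 in iae1 over iae2. AT5G42200 in iae1 over iae2 had -0.00194 with array weights. Without 1 array, AT4G17670 in iae1 over B1798 lay between -0.18 and 0.0327, AT5G42200 in iae1 over iae2 between -0.0688 and 0.11, AT3G10020 in iae2 over B1798 between -0.0581 and 0.11, CML38 there between -0.17 and 0.0834, and AT2G17850 in iae1 over iae2 between -0.0187 and 0.13. The cause was not tested. Same-numbered arrays of different lines did not deviate together (correlations of -0.15 to 0.14), and not every array correlated best with its own number. The replicate block gave 6, 9 and 9 list genes and 982, 2499 and 2745 probe sets. Dim probe sets limit what can be said: 5 list genes with a named probe set were below the filter.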
